A study of Saccharomyces cerevisiae with 8 samples.

Results

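The 10 histone genes of budding yeast (Saccharomyces cerevisiae) were followed across 8 2-colour arrays: the 8 core genes HTA1, HTA2, HTB1, HTB2, HHT1, HHT2, HHF1 and HHF2, the variant gene HTZ1 and the linker gene HHO1. They were taken by name, through the open reading frame given for each probe, and all 10 were found among the 6256 genes of the array. Of these, 4 lie on chromosome II (HTA2, HTB2, HHT1 and HHF1) and 6 elsewhere (HTA1 and HTB1 on IV, HHT2 and HHF2 on XIV, HTZ1 on XV and HHO1 on XVI). Total RNA of 7 aneuploid strains, which carry an abnormal chromosome set, was labelled with Cy5 and compared with a common wild-type RNA, WT2, in Cy3. The strains are A2 and A3, A9 and A10, together with A13, A14 and A15. The remaining array set the other wild-type RNA, WT1, in Cy5 beside WT2. All cells were in mid-log growth, and the labels name no further genotype, ploidy, chromosome content or treatment for any group, nor separate cultures.

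Core histones form the nucleosome, around which DNA is wrapped, from H2A and H2B dimers and an H3 and H4 tetramer. In yeast each core histone has 2 genes, which lie head to head with the gene of their partner and share its promoter: HTA1 with HTB1 and HTA2 with HTB2 for H2A and H2B, HHT1 with HHF1 and HHT2 with HHF2 for H3 and H4. Transcription is limited to S phase and driven by Spt10 and SBF. Outside S phase the HIR complex represses the loci other than HTA2-HTB2. In wild-type yeast the HTA1-HTB1 locus is known to respond to the supply of H2A and H2B, whereas the HTA2-HTB2 locus lacks that response. Chromosome II holds 1 gene of each core histone close to its centromere, so an additional copy of this chromosome adds a gene of all 4 types while the partner copies on IV and XIV stay as they are.

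Each strain was measured on 1 array, so a value per strain has no replicate, and the number of arrays limits the precision. All 10 genes passed the signal filter, 0 of them had a saturated spot, and their spot signals lay between 1348 and 42094 in red and between 1431.5 and 17036.8 in green, over medians of 539 to 1531.75 and 363.5 to 614 for all genes. The 2 spots of a histone gene differed with a median SD of 0.02 and at most 0.12 on the log2 scale, and 4 of 160 spots were left out as outliers (HTA1 in A2 and A13, HHF2 in A2 and A3, each then read from 1 spot). Over all genes the log2 ratios of WT1 over WT2 had an SD of 0.16, against 0.27 in A13 to 0.71 in A10. Mating-type genes set some strains apart from WT2: the median of 7 a-specific genes was -4.40 in A9, -4.03 in A10, -1.84 in A15, -1.06 in A2 and -1.04 in A3, that of 4 alpha-specific genes was 4.89 in A9, and that of 8 haploid-specific genes was -3.19 in A10. The a-specific median was -0.21 in A13 and 0.16 in A14, and the alpha-specific one between -0.16 and 0.34 outside A9. The haploid-specific median was -0.61 in A15, -0.57 in A9 and between -0.20 and 0.01 in the remaining strains. The strains thus did not differ alike. Over them the median difference from WT1 was -1.80 for the a-specific, 0.85 for the alpha-specific and -0.78 for the haploid-specific genes. Relative to their chromosomes and against WT2, limma called 2 of the 7 a-specific genes lower, where 6.63% of all genes were called lower. These were MFA1 (limma adjusted p 0.0435) and ASG7 (limma adjusted p 0.0356). Without centring limma called 0 of the 7 lower against WT2, where 3.02% of all genes were. Against WT1 it called 0 of them, with or without centring. The part of the mating-type differences in the histone values was not tested.

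The first question was how far chromosome II itself differed, since it carries the copies of interest. The median log2 ratio of its 388 other measured genes was 0.76 in A3, 0.72 in A2, 0.66 in A9, 0.51 in A15 and 0.29 in A13. It was -0.01 in A14, -0.14 in A10 and 0.0046 on WT1. Chromosomes IV and XIV, which hold the partner copies, had medians between -0.23 and -0.01 in all 7 strains. The transcripts of chromosome II thus lay above those of IV by 0.63 to 0.82 in A2, A3, A9 and A15, by 0.36 in A13 and by at most 0.09 in A10 and A14.

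HTA1, which encodes H2A, was the histone gene farthest from the reference. Its log2 ratio over WT2 was -1.17 in A2, -1.13 in A3, -0.79 in A9, -0.85 in A10, -0.28 in A13, -0.07 in A14 and -0.88 in A15, and -0.25 on WT1. Thus 6 of 7 strains lay below WT1, and A14 above it. HTB1, the H2B gene of the same locus, measured -0.72 in A2 and -0.78 in A3, -0.21 in A9, 0.16 in A10, 0.18 in A13, 0.35 in A14 and -0.49 in A15, with WT1 at 0.30. Here too 6 of 7 strains were below WT1 and A14 was above it. The 2 genes of this locus lay apart on every array, also between the wild types: HTA1 was lower than HTB1 by 0.55 on WT1, by 0.35 to 0.58 in 6 strains and by 1.01 in A10. All arrays share the WT2 reference and the dye orientation, and the part of these in the distance was not tested. Against WT1, HTB1 was lower by 1.02 in A2, 1.08 in A3, 0.79 in A15 and 0.51 in A9, and HTA1 by 0.92, 0.88, 0.63 and 0.54 in the same strains. In A10, where chromosome II was not raised, HTA1 was lower than WT1 by 0.60, more than in A9, and HTB1 by 0.14. Ratios spread most widely in A10, and 9.93% of the genes of chromosome IV were below HTA1 there, against 3.03% in A9. In A13 they differed from WT1 by -0.03 and -0.12, and in A14 by 0.18 and 0.05.

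**Figure D1:**
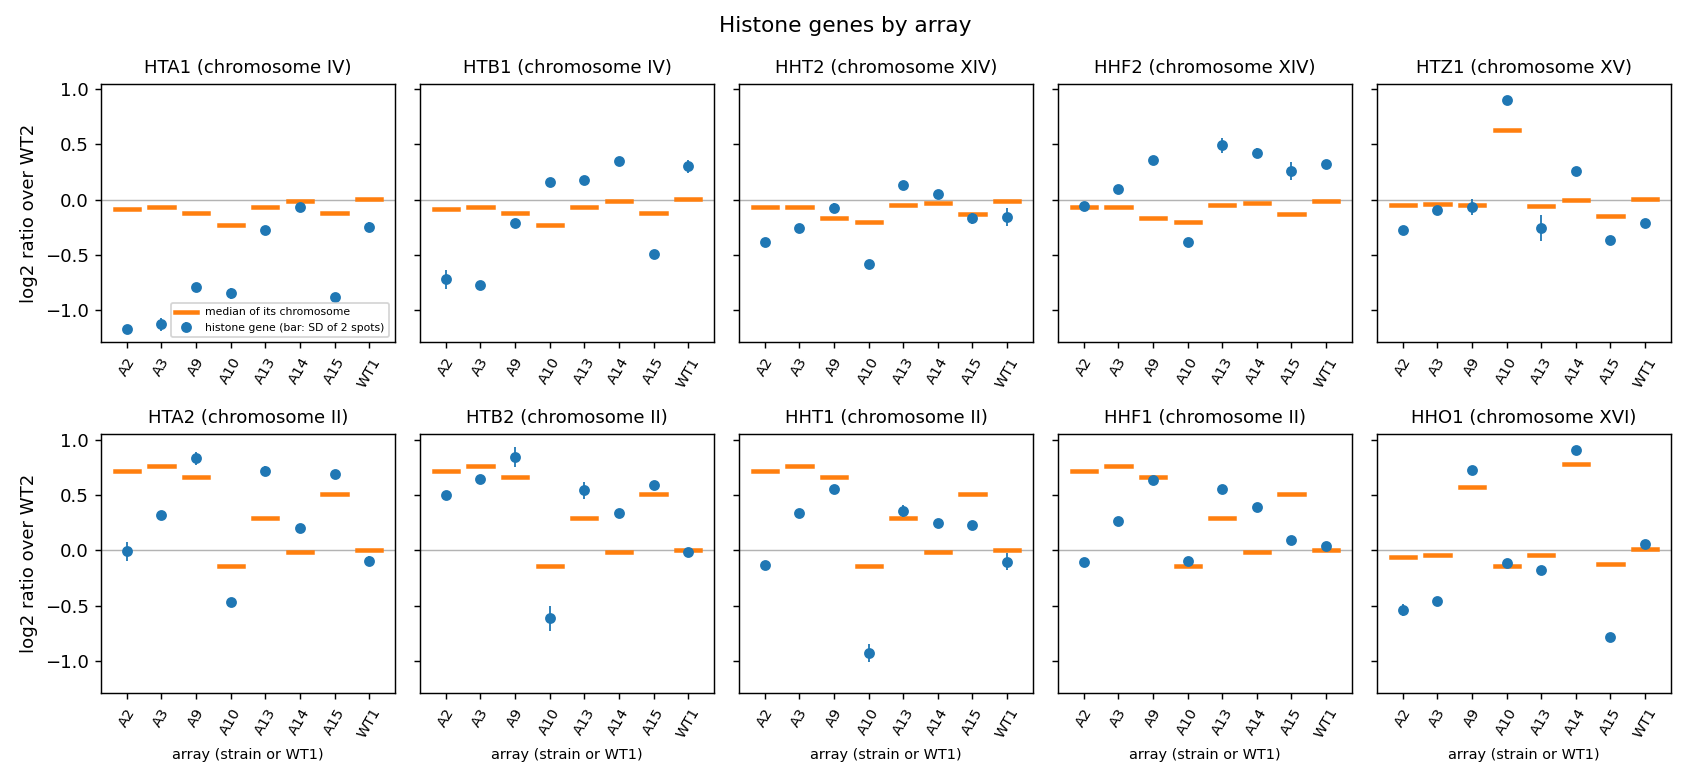
Log2 ratio over WT2 (y axis) of each histone gene on each of the 8 arrays (x axis), with the SD of its 2 spots as a bar and the median of the other genes of its chromosome as an orange line. HTA1 lies below the line of chromosome IV in all 7 strains and on WT1, whereas HTZ1 in A10 and HHO1 in A9 and A14 lie near the raised lines of chromosomes XV and XVI.

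HTA2 and HTB2, the H2A and H2B genes of chromosome II, were mostly above the wild types. HTA2 measured -0.01 in A2 and 0.32 in A3, 0.83 in A9, -0.46 in A10, 0.72 in A13, 0.20 in A14 and 0.69 in A15, with WT1 at -0.09, so 6 of 7 strains lay above WT1. HTB2 measured 0.50 in A2 and 0.64 in A3, 0.85 in A9, -0.62 in A10, 0.54 in A13, 0.34 in A14 and 0.59 in A15, with WT1 at -0.01. A10 was the 1 strain below WT1 for either gene. Measured against its own chromosome, HTA2 was 0.73 below the median of chromosome II in A2 and 0.44 below it in A3, where 3.87% and 14.2% of the chromosome's genes were lower. In A13 it was 0.43 above that median, with 95.9% of the genes lower. HTB2 was 0.22 below the median in A2 and 0.25 above it in A13.

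The H3 and H4 genes of chromosome II lay lower within it than the H2A and H2B genes in A2, A9 and A15. HHT1 measured -0.14 in A2 and 0.34 in A3, 0.55 in A9, -0.93 in A10, 0.35 in A13, 0.25 in A14 and 0.22 in A15, with WT1 at -0.10. HHF1 measured -0.10 in A2 and 0.27 in A3, 0.64 in A9, -0.10 in A10, 0.55 in A13, 0.39 in A14 and 0.09 in A15, with WT1 at 0.04. In A2, where the median of chromosome II was 0.72, both thus lay near the level of the wild types, and 1.80% and 2.06% of the genes of chromosome II were below them. In A15 HHT1 was 0.29 and HHF1 0.42 below the median of the chromosome, whereas HTA2 was 0.18 above it. A10 set the genes of this locus apart, with HHT1 lower than HHF1 by 0.83 against 0.14 on WT1.

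The partner copies of H3 and H4 on chromosome XIV spread less than those of H2A and H2B. HHT2 measured -0.38 in A2 and -0.26 in A3, -0.07 in A9, -0.58 in A10, 0.14 in A13, 0.05 in A14 and -0.17 in A15, around WT1 at -0.15. HHF2 measured -0.05 in A2 and 0.09 in A3, 0.36 in A9, -0.38 in A10, 0.49 in A13, 0.42 in A14 and 0.26 in A15, around WT1 at 0.32. For either gene 3 of 7 strains were above WT1 and 4 below. The wild-type array alone put HHF2 above 98.4% of the genes of chromosome XIV and HTB1 above 95.9% of those of chromosome IV.

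**Figure D2:**
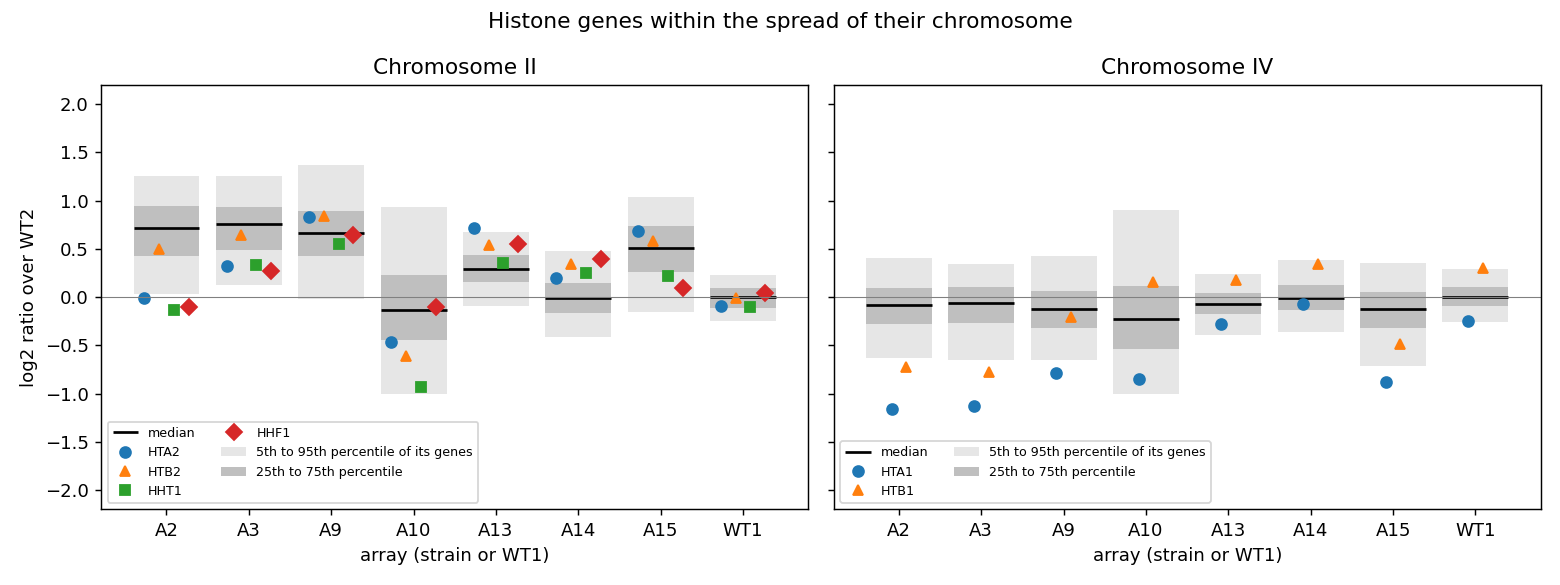
Log2 ratio over WT2 (y axis) of the histone genes of chromosomes II (left) and IV (right) on each array (x axis), over grey bars for the 5th to 95th and the 25th to 75th percentile and a black line for the median of the other genes of that chromosome. In A2 the points of HTA2, HHT1 and HHF1 lie below the 5th percentile of chromosome II, and in A2, A3, A9 and A15 HTA1 lies below that of chromosome IV.

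Copies of the same histone were then compared within each array, which cancels any factor common to an array. For H2A, HTA2 minus HTA1 was 1.16 in A2, 1.45 in A3, 1.62 in A9, 0.38 in A10, 0.998 in A13, 0.27 in A14 and 1.57 in A15, and 0.16 on WT1. All 7 strains were above WT1, and the mean was 1.06 ± 0.55 (SD, n = 7). For H2B, HTB2 minus HTB1 was 1.22 in A2, 1.42 in A3, 1.05 in A9, -0.78 in A10, 0.36 in A13, -0.01 in A14 and 1.07 in A15, and -0.31 on WT1, with a mean of 0.62 ± 0.80 (SD, n = 7) and 6 of 7 strains above WT1. For H3, HHT1 minus HHT2 was 0.24 in A2, 0.59 in A3, 0.62 in A9, -0.35 in A10, 0.22 in A13, 0.19 in A14 and 0.39 in A15, and 0.05 on WT1, with a mean of 0.27 ± 0.33 (SD, n = 7). For H4, HHF1 minus HHF2 was -0.05 in A2, 0.18 in A3, 0.28 in A9, 0.28 in A10, 0.06 in A13, -0.03 in A14 and -0.17 in A15, and -0.28 on WT1, with a mean of 0.08 ± 0.17 (SD, n = 7).

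Over the 7 strains the exact two-sided sign-flip permutation p against 0 was 0.0156 for H2A, the smallest that 7 strains allow, 0.0938 for H2B, 0.0781 for H3 and 0.266 for H4. Adjusted over the 4 pairs by Benjamini-Hochberg these permutation p-values were 0.0625, 0.125, 0.125 and 0.266, so none passed 0.05. Against the lone WT1 array an exact permutation test cannot go below 0.125, which the H2A and H4 pairs reached. The 4 tests ask whether the strains share a direction, although chromosome II did not differ alike in all of them. In A13, A14 and A15 alone, the strains of the slide row that holds WT1, the mean was 0.95 for H2A and -0.046 for H4, so that the H4 direction turned there.

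In the 4 strains with the highest chromosome II, the H2A and H2B pairs differed by more than their chromosomes and the H3 and H4 pairs by less. The other 3 strains did not fully share this pattern, with or without WT1 subtracted. How well the probes separate the near-identical copies of a pair was not tested. In A2, A3, A9 and A15, HTA2 minus HTA1 exceeded the difference between the medians of chromosomes II and IV by 0.36, 0.62, 0.83 and 0.94, and HTB2 minus HTB1 exceeded it by 0.42, 0.59, 0.27 and 0.44. HHT1 minus HHT2 differed from the corresponding difference between II and XIV by -0.53, -0.23, -0.20 and -0.25 in these strains, and HHF1 minus HHF2 by -0.83, -0.65, -0.55 and -0.81. With the wild-type difference of WT1 subtracted, the H2A excess was 0.21, 0.47, 0.68 and 0.78, the H2B excess 0.74, 0.91, 0.59 and 0.76, and the H3 and H4 values ran from -0.57 to -0.24. In A10 the values relative to the chromosomes were 0.29 for H2A, -0.87 for H2B, -0.41 for H3 and 0.21 for H4. With WT1 subtracted A10 had 0.14, -0.55, -0.44 and 0.51. In A13 the values before subtraction were 0.64 for H2A, -0.00055 for H2B, -0.13 for H3 and -0.28 for H4. With WT1 subtracted A13 had 0.48, 0.32, -0.16 and 0.0086, which is the pattern for H2A, H2B and H3 but not for H4. In A14 the values before subtraction were 0.27 for H2A, -0.0091 for H2B, 0.18 for H3 and -0.048 for H4. With WT1 subtracted A14 had 0.11, 0.31, 0.14 and 0.24. Averaged over the 4 pairs, the copies of chromosome II measured above their partners by 0.64 in A2, 0.91 in A3, 0.89 in A9, 0.41 in A13, 0.72 in A15, 0.11 in A14 and -0.12 in A10, against -0.10 on WT1. After subtraction of each chromosome's own median this mean was between -0.19 in A10 and 0.10 in A14, with WT1 at -0.11. As a mean over the listed genes it was given no test.

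**Figure D3:**
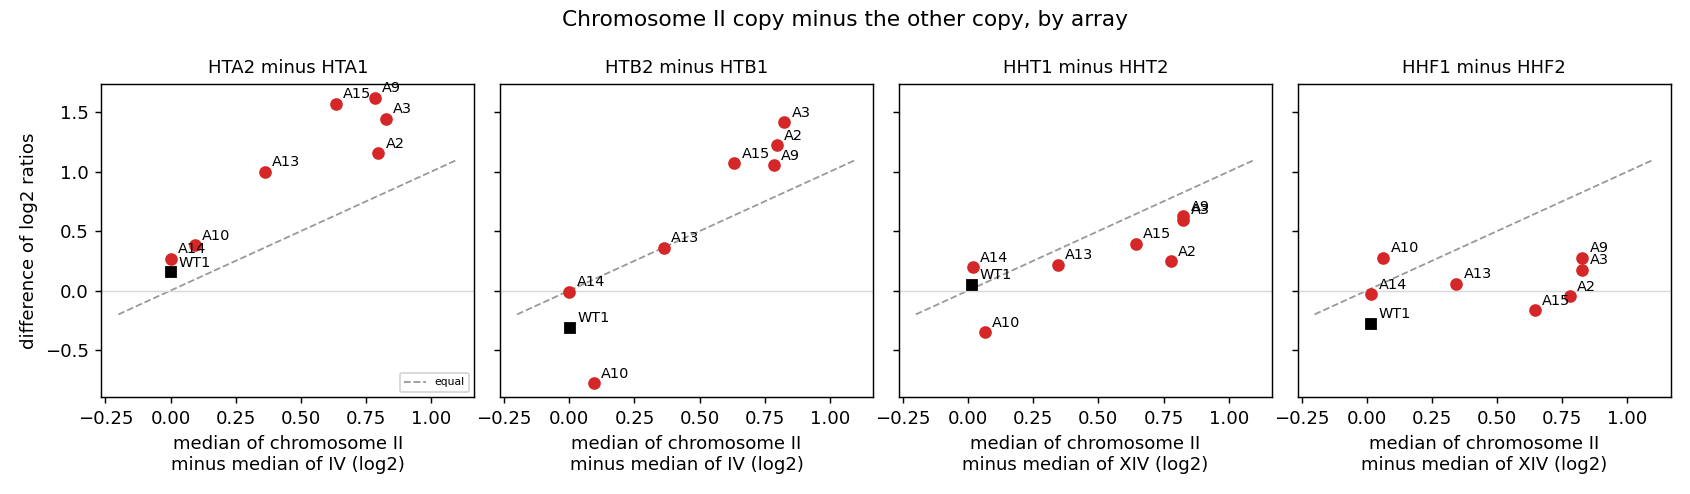
Difference of log2 ratios between the chromosome II copy and its partner (y axis) against the difference between the medians of their chromosomes (x axis) on each array, with strains as red circles and WT1 as a black square. The dashed line marks equal values: A2, A3, A9 and A15 lie above it for HTA2 minus HTA1 and HTB2 minus HTB1 and below it for HHT1 minus HHT2 and HHF1 minus HHF2.

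For H2B the strains ranked much as the median of chromosome II did, while the H2A values followed it less closely. These relations were chosen after the values were seen, with 8 relations computed over 7 strains by exact permutation and adjusted over the 8. The first gene of each pair lies on chromosome II itself, so a relation of a pair with that median was likely beforehand. Other genes of chromosomes II, IV and XIV were not treated in this way. The p-values of the pairs and of the single genes on IV and XIV thus do not set the histones apart. HTB2 minus HTB1 had a Pearson r of 0.97 (exact permutation p 0.000397, adjusted 0.00317) and a Spearman rho of 0.96 (p 0.00278, adjusted 0.0111) with the median of chromosome II, and r was 0.95 without A10 and A14, the strains farthest from the median of that measure. HTB1, which does not lie on chromosome II, had r = -0.90 (exact permutation p 0.0107, adjusted 0.0222) and rho = -0.96 (p 0.00278, adjusted 0.0111) after subtraction of the median of chromosome IV, and r = -0.84 without the same strains. HTA1 had r = -0.72 (exact permutation p 0.0681, adjusted 0.109) and rho = -0.82 (p 0.0341, adjusted 0.0683), which missed the threshold after adjustment, and r = -0.92 without A10 and A14. In A10 HTA1 was 0.61 below chromosome IV, with 9.93% of its genes lower still, although chromosome II was at -0.14.

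For HTA2 minus HTA1 r was 0.90 (exact permutation p 0.0111, adjusted 0.0222) and rho 0.68 (p 0.110, adjusted 0.175), and for HHT1 minus HHT2 r was 0.83 (exact permutation p 0.0107, adjusted 0.0222) and rho 0.82 (p 0.0341, adjusted 0.0683). Without A10 and A14 these fell to r = 0.48 and 0.59, over a narrower range of chromosome II, so neither was as close among the remaining strains. Without A10 alone r was 0.85 and 0.68, and without A14 alone 0.87 and 0.90. HHF1 minus HHF2 had r = -0.11 and rho = -0.21 (exact permutation p 0.793 and 0.662). HHT2 and HHF2, relative to chromosome XIV, had r = -0.0017 and 0.16 and rho = -0.04 for either (exact permutation p 0.996 and 0.736 for r, 0.963 for rho), and r = -0.76 and -0.69 without A10 and A14. For HHF1 minus HHF2 it was 0.30 without them. Both measures of a point come from the same array and share the WT2 reference. The slide rows hold 4 and 3 strains, too few to repeat the relation within a row, and whether A2 and A3 are independent strains is not given in the labels.

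**Figure D4:**
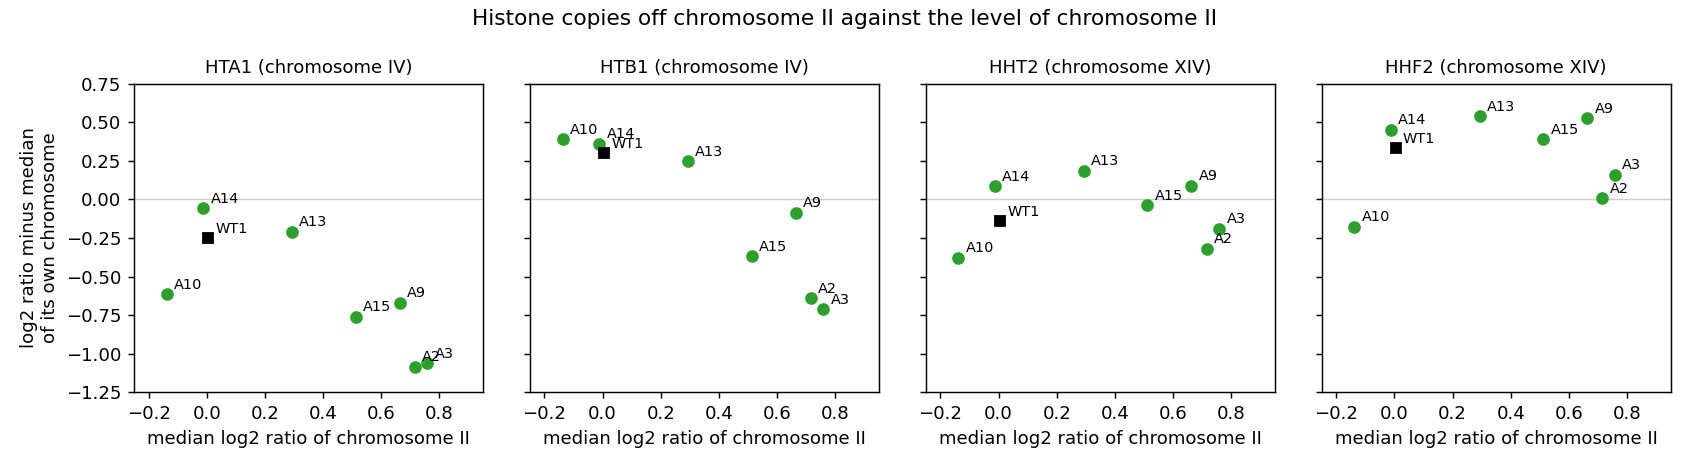
Log2 ratio of HTA1, HTB1, HHT2 and HHF2 minus the median of their own chromosome (y axis) against the median log2 ratio of chromosome II (x axis), with strains as green circles and WT1 as a black square. HTA1 and HTB1 are lowest in A2 and A3, at -1.08, -1.06, -0.64 and -0.71, where chromosome II is highest, while HHT2 and HHF2 have r near 0 over the 7 strains and -0.76 and -0.69 without A10 and A14.

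Genes next to each histone locus showed whether a level was that of the surroundings. The 10 nearest measured genes of HTA1-HTB1, 5 on each side, had medians between -0.11 and 0.05 in the 7 strains, whereas the mean of the locus was -0.94 in A2, -0.95 in A3, -0.68 in A15, -0.50 in A9 and -0.34 in A10. The mean in A10 joins unlike genes, HTA1 at -0.85 and HTB1 at 0.16. In A13 and A14 this locus was 0.0027 and 0.09 above its neighbours. Around HTA2-HTB2 the neighbours had a median of 0.56 in A2 and 0.75 in A3, with the locus lower by 0.32 and 0.27, and 0.75 in A9 and 0.68 in A15, with the locus within 0.09 of them. In A13 and A14 it was 0.27 and 0.34 above them. Around HHT1-HHF1 the neighbours were at 0.69 in A2, 0.75 in A3, 0.73 in A9 and 0.41 in A15, and the locus lay 0.81, 0.44, 0.14 and 0.25 below them. In A13 and A14 it was 0.07 and 0.35 above its neighbours. HHT2-HHF2 was between 0.15 below and 0.44 above its neighbours in the strains, and 0.23 above them on WT1.

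Log ratios of both copies of a histone were also averaged, which weighs the copies alike and is no total, since the signals of different probes cannot be added. The H2A mean was -0.59 in A2, -0.40 in A3, 0.02 in A9, -0.65 in A10, 0.22 in A13, 0.07 in A14 and -0.10 in A15, with WT1 at -0.17. The H2B mean stayed between -0.23 in A10 and 0.36 in A13, with WT1 at 0.14. The H3 mean was lowest in A10 at -0.75 and A2 at -0.26 and otherwise between 0.03 and 0.25, with WT1 at -0.13. H4 was between -0.24 in A10 and 0.52 in A13, with WT1 at 0.18. For each of the 4 types the strains lay on both sides of WT1. In RNA from whole cultures a smaller share of cells in S phase and less histone RNA per cell cannot be told apart.

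HTZ1 encodes H2A.Z, the H2A variant placed next to promoters by the SWR1 complex, and is not limited to S phase. It measured -0.27 in A2 and -0.10 in A3, -0.07 in A9, 0.90 in A10, -0.26 in A13, 0.26 in A14 and -0.36 in A15, with WT1 at -0.21. A10, the highest, was the strain in which chromosome XV had a median of 0.63, and the neighbours of HTZ1 there were at 0.85. Relative to its chromosome HTZ1 lay within 0.27 of the median in all 7 strains, the narrowest range of the 10 genes. HHO1, the linker histone H1, measured -0.54 in A2 and -0.46 in A3, 0.72 in A9, -0.11 in A10, -0.18 in A13, 0.91 in A14 and -0.78 in A15, with WT1 at 0.05. Its chromosome XVI had medians of 0.58 in A9 and 0.78 in A14, so that HHO1 was 0.15 and 0.13 above it. In A15, A2 and A3, where chromosome XVI was near 0, HHO1 was 0.66, 0.48 and 0.41 below the median, and 2.22%, 6.94% and 9.35% of the genes of that chromosome were lower. Chromosome XVI was not raised in A10 and A13 either, at -0.14 and -0.04. There HHO1 was 0.03 above and 0.14 below its median.

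Counts at a fold of 1.5 over WT2, a description without a test, gave 0 members higher in A2 (9.83% of all genes) and 2 lower, HTA1 and HTB1 (5.27%). In A3 the members were HTB2 higher (10% of genes) and HTA1 and HTB1 lower (4.22%). A9 had 4 higher, HTA2, HTB2, HHF1 and HHO1 (15.2%), and HTA1 lower (5.37%). A10 had HTZ1 higher (19.2%) and 3 lower, HTA1, HTB2 and HHT1 (14%). A13 had HTA2 higher (3.03%) and 0 lower (0.722%), and A14 had HHO1 higher (10.3%) and 0 lower (1.32%). In A15 HTA2 and HTB2 were higher (10.7%) and HTA1 and HHO1 lower (5.73%). On WT1 it was 0 of 10 in either direction, where 0.0979% and 0.0326% of all genes passed. These shares take all chromosomes together. The median of chromosome II was itself above a fold of 1.5 in A2, A3 and A9, as was that of XV in A10 and of XVI in A14.

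A common change over the strains was tested with limma across all genes. Against WT1, 0 of 10 members and 0% of 6117 genes passed an adjusted p under 0.05 in either direction, with 0 members and 32 genes at an unadjusted p under 0.05. The differences were -0.49 (SE 0.400) for HTA1, -0.52 (SE 0.437) for HTB1, 0.42 (SE 0.442) for HTA2 and 0.42 (SE 0.451) for HTB2. In the test against WT2, in which wild type has no spread of its own, 1 member was lower, HTA1 at -0.74 (SE 0.141, limma adjusted p 0.0367, below 0 in 7 of 7 strains), where 3.02% of genes were called lower, and 0 were higher, where 2.34% were. Of all genes 7.87% were below WT2 in all 7 strains and 6.92% above it, where 0 members were. Likewise 0 members lay above WT1 in all 7 strains (6.88% of genes) and 0 below it (7.34%). With median centring in place of loess HTA1 in A14 was at 0.04, so that 6 of 7 strains were below 0. HTB2 at 0.40 (SE 0.160, limma adjusted p 0.149) and HHF1 at 0.25 (SE 0.108, limma adjusted p 0.185) were not called. Relative to its chromosome HTA1 was at -0.64 (SE 0.129, limma adjusted p 0.0206), again 1 of 10 members, where 6.63% of genes were called lower, with 0 members higher where 5.35% were. HTA1 on WT1 was itself at -0.25, and against WT1 it was not called with or without chromosome centring. The call against WT2 was lost without A2 (limma adjusted p 0.103), A3 (0.117), A9 (0.0930), A13 (0.0656) or A15 (0.0668), and that relative to its chromosome without A2 (0.0603), A3 (0.0645) or A9 (0.0595).

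Of 33 genes that regulate, chaperone or turn over histones, 33 were measured. Against WT1 limma called 0 higher and 0 lower, with a median of 0.04 beside 0.04 for all genes. Relative to their chromosomes and against WT2 it called 2 higher and 1 lower, with a median of 0.03 beside 0.0021 for all genes. These shares are near or below those of all genes in that fit, 5.35% higher and 6.63% lower. Without centring, SWI4 alone of the 33 was called, and RTT109 was at 0.0054 (limma adjusted p 0.976). The genes called after centring were SWI4, the DNA-binding subunit of SBF, at 0.44 (SE 0.0783, limma adjusted p 0.0159), SPT21, which acts with Spt10 at histone promoters, at 0.33 (SE 0.0600, limma adjusted p 0.0159), and RTT109, an acetyltransferase of H3, at -0.20 (SE 0.0527, limma adjusted p 0.0399). On WT1 these genes were already at 0.29, 0.31 and -0.24. MBP1, the DNA-binding subunit of MBF, was at 0.19 (SE 0.0598, limma adjusted p 0.0721) and not called. HIR1, a subunit of the HIR complex, lies on chromosome II 5 measured genes or fewer from HTA2-HTB2 and measured 1.04 in A2 and 1.01 in A3, 0.81 in A9 and 0.68 in A15, 0.32, 0.25, 0.14 and 0.17 above the median of its chromosome. It was at 0.36 in A13, -0.04 in A10, -0.03 in A14 and 0.03 on WT1, and relative to its chromosome it was not called (0.15, SE 0.0587, limma adjusted p 0.126). SPT10, the activator of histone transcription, was at 0.03 in A14 to 0.39 in A10, with WT1 at 0.17. ASF1, a chaperone of H3 and H4, was at -1.12 in A10, -0.64 in A9, 0.71 in A15 and between -0.22 and -0.01 in the other strains, with WT1 at -0.16. CSE4, the centromeric H3, was at 0.82 in A15 and 0.56 in A10, 0.13 above and 0.13 below the median of its chromosome XI, and between -0.26 and 0.26 elsewhere.

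Genes of S phase entry, 24 of 24 measured, were read beside the histones because both depend on the share of cycling cells. Their median log2 ratio lay between -0.07 in A2 and 0.09 in A14, with WT1 at 0.06. Against WT1 limma called 0 higher and 0 lower, with a median of -0.03 beside 0.04 for all genes, and relative to their chromosomes and against WT2 it called 1 higher (SWE1) and 2 lower (RFA2 and POL12), close to the 5.35% and 6.63% of all genes. Without centring it called 0 higher and 1 lower (RFA2), and POL12 was at 0.06. Single genes ranged from -1.11 to 2.32 among the strains. The part of cell-cycle stage in the histone values was not tested.

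The core histone genes together, as the median of the 8 after subtraction of each gene's chromosome median, were at -0.68 in A2, -0.43 in A3, -0.35 in A10, -0.16 in A15, 0.03 in A9, 0.25 in A13, 0.31 in A14 and -0.06 on WT1. Among 5631 other genes the ones most like this pattern over the 8 arrays were ASI2 (Pearson r 0.96), PDC1, a pyruvate decarboxylase (0.95), RAD17, a DNA damage checkpoint gene (0.95), YER187W (0.94) and MFM1 (0.94). These are the highest of many correlations over 8 points and share arrays and reference.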

How the data were processed

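The members and lists were chosen with earlier results of these data known. Agilent's software Feature Extraction 10.5.1.1 read the spots, per the file headers. For red and green the deposited median intensity of spot and local background, not normalized, was taken. The processed signal intensity, background-subtracted and dye-normalized, and its log10 ratio of red over green are in the same files, per the file headers. Log2 ratios in the deposited value table matched these log10 ratios within 5e-04 on every array, with column medians of -0.014 to 0, which settled its scale and direction. It has 0 columns of no sample. No dyes were swapped, and the 8 arrays lay on 1 slide, with A2, A3, A9 and A10 in row 1 and A13, A14, A15 and WT1 in row 2.

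Background was corrected with normexp (offset 50), ratios were normalized by loess within arrays in limma 3.58.1 under R 4.3.3 with weight 0 for 536 control spots, spots with feature outlier flags were left out and the 2 spots of a gene were averaged. The files hold median signals, as used. Names and chromosomes came from RefSeq R64 for 5756 genes; 500 had no match and were left out of chromosome-centred values. Coordinates are not given, since the array design follows an older build. The probe sequences were not used here, so how well a probe separates near-identical copies was not tested. On 1 array copies of H2A differed by up to 1.62, while those of H4 differed by at most 0.28 on any array. Genes entered if well above background in red or green on 2 or more arrays (6126), of which 6117 (5685 chromosome-centred) had values enough for limma's lmFit and eBayes, two-sided, with Benjamini-Hochberg adjustment at 0.05. Strains served as replicates, WT1, with 1 array, was taken to vary as they do, and since no label names separate cultures, p-values reflect variation among these arrays alone, possibly technical. Chromosome medians leave out the histone genes. Genes outside the 10 were named by rule: ASF1, HIR1, SPT10, SPT21, CSE4, the 4 regulators of smallest p and the 5 genes most like the core histones; the S phase genes and neighbours were named as called. Steps were tested on simulated data.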

Additional observations from a re-analysis of the deposited data

Results flagged for a closer look

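Of 25 sets of 7 strain values checked (each member's log2 ratio, with and without its chromosome's median, and the pair differences), 1 held a strain far from the other strains: HTB2 in A10, at -0.62. Its gap to the next strain was 0.654 of the whole range, above Dixon's critical value at the 95% level for 7 values. Chance alone marks about 5% of such sets. HTB2 was between 0.34 and 0.85 in the other 6 strains.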

How the results depend on the processing

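With 7 strains on 1 array each, single calls depend on who is included. The mean over the 4 pairs was 0.44 to 0.61 when 1 strain was left out, HTA2 minus HTA1 0.97 to 1.20, HTB2 minus HTB1 0.49 to 0.85, HHT1 minus HHT2 0.22 to 0.38 (exact permutation p 0.0313 without A10, adjusted 0.0625) and HHF1 minus HHF2 0.04 to 0.12. For HTA2 minus HTA1 the exact permutation p was 0.0313 each time. After adjustment over the 4 pairs none passed 0.05. In the slide row of WT1 alone HTA2 minus HTA1 was 0.95 (exact permutation p 0.25, the smallest 3 strains allow) and HHF1 minus HHF2 -0.046. Against WT1 limma called 0 genes under every setting tried. Against WT2 it called 143 higher and 185 lower genes, 300 and 253 with Agilent's processed signals or the deposited table, 510 and 634 with median centring, 224 higher with a normexp offset of 0, and 0 and 0 in the slide row of WT1. Relative to their chromosomes it called 304 and 377, 471 and 626 with median centring, and 0 and 0 in that row. Leaving out 1 strain gave 0 to 231 higher and 0 to 239 lower, or 35 to 389 and 70 to 459 relative to chromosomes. HTB2 passed against WT2 with median centring (0.54, limma adjusted p 0.0448) or without A10 (0.57, limma adjusted p 0.0262). HTA1 was not called in the slide row of WT1 (-0.41, and -0.34 relative to its chromosome). Of 70 member values in the strains 9 changed sign under another scaling, each at most 0.14 in size. Of the relations with chromosome II, alternatives chosen after seeing the data turned those of HHT2 (r 0.0106 with Agilent's signals and 0.0107 with the deposited table, 0.13 with median centring, 0.0030 with offset 0) and of HHF1 minus HHF2 (0.16 with median centring). Leaving out 1 strain gave r from -0.66 to 0.23 for HHT2, -0.58 to 0.38 for HHF2, -0.34 to 0.35 for HHF1 minus HHF2, 0.68 to 0.92 for HHT1 minus HHT2 (exact permutation p 0.142 without A10), 0.85 to 0.94 for HTA2 minus HTA1 (p 0.0583 without A13), -0.94 to -0.60 for HTA1, -0.96 to -0.87 for HTB1 and 0.97 to 0.99 for HTB2 minus HTB1. The cause of these changes was not tested. No paired analysis was possible because the wild-type group holds 1 array.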

Other observations

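In A10 the surroundings of the histone loci on chromosome II differed from each other. The 10 measured genes nearest to HTA2-HTB2 had a median log2 ratio over WT2 of -0.48, and those nearest to HHT1-HHF1 one of 0.32, while the chromosome as a whole was at -0.14. The mean of HTA2 and HTB2 was 0.05 below its neighbours and that of HHT1 and HHF1 0.84 below them. The latter mean joins unlike genes, HHT1 at -0.93 and HHF1 at -0.10. In the other 6 strains and on WT1 the medians of these groups of neighbours were within 0.27 of each other. The histone loci are next to the centromere on either side, but both groups of neighbours hold GPI18, so they meet and are not separate regions. A10 had the widest spread of ratios over all genes.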
